A study of Mus musculus with 4 samples.

Results

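The 10 genes described here encode small leucine-rich proteoglycans of the extracellular matrix: Dcn (decorin), Bgn (biglycan), Lum (lumican), Fmod (fibromodulin), Ogn (osteoglycin), Kera (keratocan), Prelp, Aspn (asporin), Omd (osteomodulin) and Chad (chondroadherin). They were taken by symbol, each symbol matched 1 row, and they are 10 of the 32285 genes in the matrices. Their unique molecular identifiers (UMIs, the count of distinct captured transcripts) were read in single cells from the tibialis anterior and gastrocnemius muscles of mice aged 2 months. All mice were male and carried S100GFPtg, which places GFP under the S100B promoter, active in Schwann cells, and their cells were sorted into a GFP+ and a GFP- fraction. The 4 libraries were WT GFP+ and WT GFP- (genotype S100GFPtg) and Sod1KO GFP+ and Sod1KO GFP- (genotype S100GFPtg Sod1-/-), where Sod1 encodes the cytosolic superoxide dismutase that is absent from the whole animal in this strain. Cells of 4 mice per genotype were pooled before sorting, so there is 1 library per group and no replicate. No test between groups was therefore possible, and every interval printed covers counting error only.

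Small leucine-rich proteoglycans are secreted proteins with a core of leucine-rich repeats, most of which carry chondroitin, dermatan or keratan sulfate chains. Decorin, biglycan, lumican and fibromodulin bind collagen fibrils and set their diameter and spacing, and several members also hold growth factors of the TGF-beta family. In muscle and tendon they are made mainly by tenocytes and fibroblasts, and keratocan and lumican are best known from the cornea, asporin and osteomodulin from cartilage and bone.

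The libraries held 21959719 to 105954116 UMIs. Between 1638 and 5925 cells per library were used, with medians of 8024 to 14651 UMIs per cell, lowest in WT GFP-. Sod1, the targeted gene, was at 91.1 and 124 CPM in the GFP+ and GFP- cells labelled WT and at 98.1 and 113 CPM in those labelled Sod1KO, where CPM is a gene's UMIs over all UMIs of the cells, scaled to 1e6. The 3' tags of Sod1 thus did not separate the libraries by their genotype labels in the GFP+ sort. In the GFP- sort they were only slightly lower in the library labelled Sod1KO, and far from absent. The sources used here do not say whether these tags lie in the deleted part of the gene. Genotypes are accordingly written as the libraries are labelled. Libraries shared between 0 and 10 cell barcodes per pair. Clustering without the 10 members gave 35 clusters, of which those with enough markers were named and 3696 cells stayed unnamed. The stromal classes were tenocyte-like (2306 cells), Inmt stromal-like (916), Pi16 fibroblast-like (677), Myoc fibro-adipogenic-like (531), fibroblasts led by Cxcl14 (491) and perineurial-like cells (245). The 7 tenocyte markers (Tnmd, Scx, Mkx, Thbs4, Comp, Col11a1 and Cilp2) summed to 12012 to 12995 CPM in tenocyte-like cells against 7.54 to 27.6 CPM in endothelial-like cells. WT GFP- held fewer than 20 cells of each stromal class except Myoc fibro-adipogenic-like cells (24) and a cluster led by Sfrp2 (148 cells), so stromal levels are given for the other 3 libraries.

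Fmod, Kera and Chad were the members that set tenocyte-like cells apart. Fibromodulin binds collagen fibrils and guides their assembly in tendon, keratocan is a keratan sulfate core protein, and chondroadherin binds collagen and integrins without carrying long chains. In tenocyte-like cells Fmod stood at 8886 CPM in WT GFP+, 8642 in Sod1KO GFP+ and 9259.9 in Sod1KO GFP-. The other stromal classes held 6.24 to 299.9 CPM of Fmod in the same libraries. Chad stood at 3039.7, 2986 and 2681 CPM in tenocyte-like cells of these 3 libraries, against 1.67 to 94.02 CPM elsewhere in the stroma. Kera stood at 1094, 1137 and 1475 CPM, against 0.78 to 95.2 CPM elsewhere in the stroma. No other stromal class came within 10-fold of the tenocyte-like level for any of the 3 genes in any of the 3 libraries. Against the mean of the other 5 stromal classes, tenocyte-like cells were 67.8 to 104-fold higher for Fmod, 94.8 to 184-fold higher for Chad and 40.2 to 282-fold higher for Kera. Tenocyte-like cells also held 97.3% to 98.5% of the Fmod UMIs of a library, 97.9% to 98.7% of those of Chad and 98.5% to 99.05% of those of Kera in these 3 libraries.

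Between them, 3 of the 10 members were at least 2-fold above the mean of the other stromal classes in tenocyte-like cells in all 3 libraries, where 3.98% of the 13910 genes compared were. In the other direction only Lum was at least 2-fold lower, where 12.6% of genes were. The mean for each other class includes tenocyte-like cells, so the low Fmod, Kera and Chad of those classes restate the tenocyte-like level and are not read further. Of the other 7 members, Aspn and Omd were lower in fibroblasts led by Cxcl14, where 4.97% of genes were, and Bgn, Lum and Aspn in perineurial-like cells, where 5.32% of genes were. No member was higher in Inmt stromal-like or perineurial-like cells, where 1.48% and 5.05% of genes were. The share of cells with a UMI was read after each cell was thinned to 1000 UMIs. For Fmod it was 94.4%, 96.04% and 93.9% of tenocyte-like cells in WT GFP+, Sod1KO GFP+ and Sod1KO GFP-, for Chad 73.8%, 76.1% and 75.7%, and for Kera 51.8%, 57.03% and 65.8%. Endothelial-like cells, which should lack these genes, had shares of 0.658% to 1.32% for Fmod and at most 0.329% for Kera and Chad in the same libraries. Unthinned, the Kera share was 90.9% to 92.7% in tenocyte-like cells and 1.43% to 2.97% in endothelial-like cells, with median depths of 22305 to 29462 and 11442 to 12368 UMIs.

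**Figure D1:**
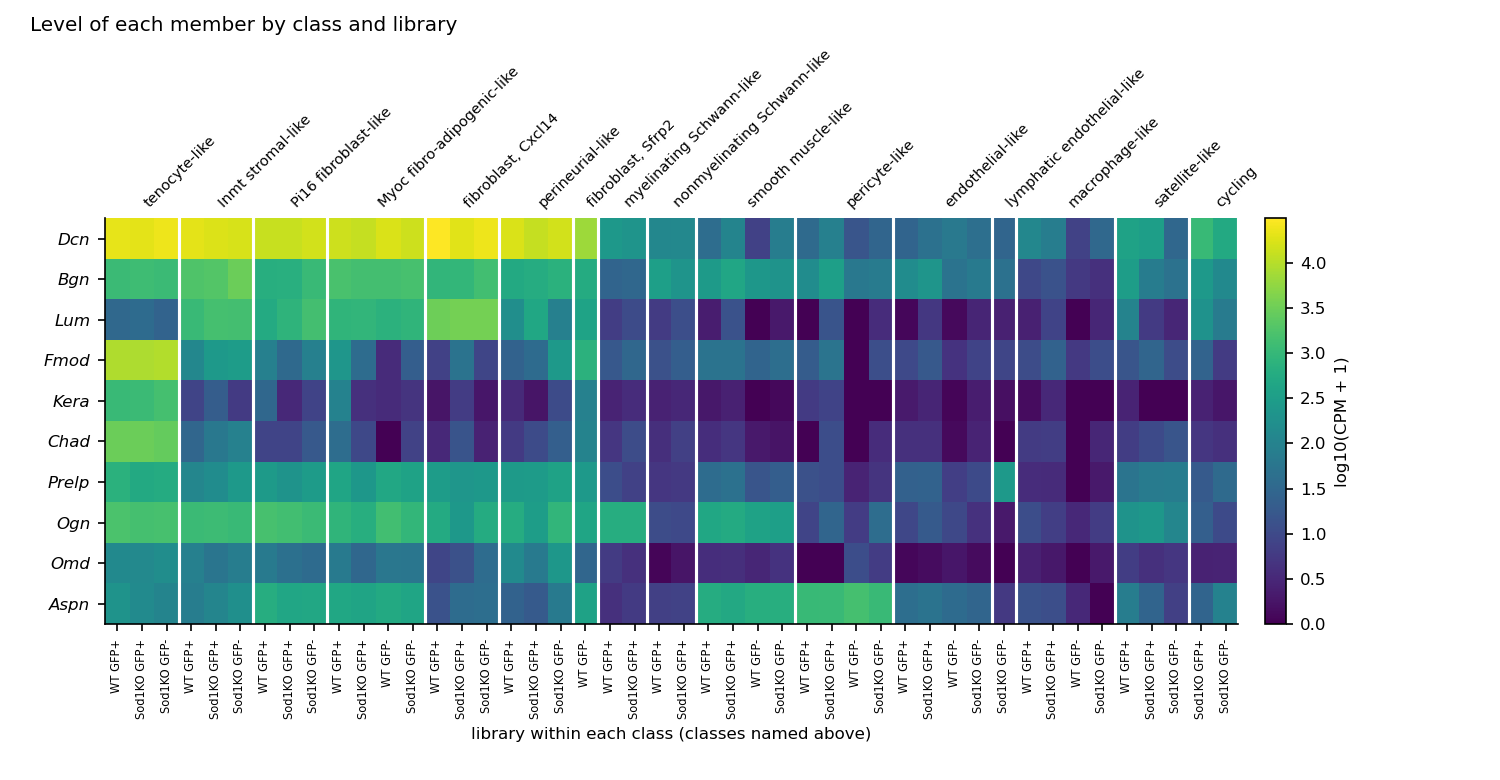
Level of each of the 10 genes (rows) as log10(CPM + 1) of summed UMIs, in each class with at least 20 cells and each library (columns). Fmod, Kera and Chad are bright in the 3 tenocyte-like columns, where Lum is dark (25.6 to 36.7 CPM), and Aspn is brightest in the 4 pericyte-like columns (1068 to 1476 CPM).

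The promoters of these 3 genes lie on different chromosomes. They are shown because the genes rose and fell together across the clusters. Pearson r of log2(CPM + 1) over the 35 clusters was 0.97 for Fmod with Chad, 0.95 for Fmod with Kera and 0.93 for Kera with Chad, a description only, since clusters share libraries and depth. Each window runs from 250 bases before to 50 after the start of a RefSeq transcript on GRCm38.p6, and 8 of the 10 members have such a window in the table used here. Capitals mark the E-box CANNTG, the letters bound by basic helix-loop-helix factors such as scleraxis, a transcription factor of tendon. The letters read the same on both strands.
Fmod, chr1:134037004-134037303, plus strand: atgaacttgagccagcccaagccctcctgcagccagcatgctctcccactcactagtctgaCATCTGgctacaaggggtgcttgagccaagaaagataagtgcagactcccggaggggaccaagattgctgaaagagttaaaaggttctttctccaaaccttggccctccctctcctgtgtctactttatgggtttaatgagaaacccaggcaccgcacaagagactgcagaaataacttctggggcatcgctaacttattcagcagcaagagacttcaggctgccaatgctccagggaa
Kera, chr10:97606955-97607254, plus strand: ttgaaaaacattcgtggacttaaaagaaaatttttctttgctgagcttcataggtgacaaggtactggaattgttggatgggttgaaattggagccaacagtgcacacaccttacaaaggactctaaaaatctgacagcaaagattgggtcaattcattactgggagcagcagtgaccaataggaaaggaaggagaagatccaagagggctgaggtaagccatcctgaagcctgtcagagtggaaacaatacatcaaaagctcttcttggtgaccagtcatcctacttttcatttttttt
Chad, chr11:94564797-94565096, plus strand: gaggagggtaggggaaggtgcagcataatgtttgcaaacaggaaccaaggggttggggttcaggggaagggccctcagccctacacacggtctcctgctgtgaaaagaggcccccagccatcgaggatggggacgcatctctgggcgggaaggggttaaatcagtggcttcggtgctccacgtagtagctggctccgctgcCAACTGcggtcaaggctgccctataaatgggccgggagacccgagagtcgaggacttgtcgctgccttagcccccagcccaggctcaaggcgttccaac
The Fmod and Chad windows each hold 1 match and the Kera window 0. The annotated span of Kera starts at 97606962, so most of its window lies inside the gene, unlike those of Fmod and Chad. Its counts are therefore no reading of the sequence before the gene. Of the 32851 windows of this length in the table, 72.3% hold at least 1 match. The letters TATAAA, searched on both strands, occur 1 time in the Chad window and 0 times in those of Fmod and Kera, and in 13.6% of all windows. No CANNTG match overlaps a TATAAA match in these windows (0 overlaps), and a match is a description of letters only.

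Lum took the opposite course to Kera, its neighbour on chromosome 10. Lumican, a keratan sulfate proteoglycan that spaces collagen fibrils, was lowest of all stromal classes in tenocyte-like cells, at 32.4, 36.7 and 25.6 CPM in WT GFP+, Sod1KO GFP+ and Sod1KO GFP-. It was highest in fibroblasts led by Cxcl14, at 3140.1, 3617 and 3541 CPM. Tenocyte-like cells were 36.1 to 57.3-fold below the mean of the other stromal classes, and fibroblasts led by Cxcl14 4.65 to 5.72-fold above it, where 1.87% of genes were at least 2-fold higher. Inmt stromal-like cells came next in each of the 3 libraries (1114, 1466 and 1423 CPM), followed by Pi16 and Myoc fibroblast classes at 564 to 1410.4 CPM. After thinning, 2.97% (exact 95% interval 1.77% to 4.65%) of tenocyte-like cells in WT GFP+ had a Lum UMI, against 88.8% (exact 95% interval 79.7% to 94.7%) of fibroblasts led by Cxcl14 and 0.329% of endothelial-like cells. The cluster led by Cxcl14 carried 6 of 8 endoneurial and 7 of 10 Myoc-list markers, so its subtype was left unnamed.

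Dcn, by contrast, was high in every stromal class. Decorin coats collagen fibrils and limits their lateral growth. Tenocyte-like cells held 20688, 20134 and 23628 CPM, fibroblasts led by Cxcl14 30911, 19470.4 and 23695 CPM, and the other 4 stromal classes 12563 to 20542 CPM. No stromal class was 2-fold above or below the mean of the others in all 3 libraries. In these build coordinates Dcn spans chr10:97479500-97518163, Lum chr10:97565501-97572703 and Kera chr10:97606962-97613688, with 47.3 kb between Dcn and Lum and 34.3 kb between Lum and Kera. Over the 35 clusters Lum followed Dcn (r = 0.86) more than Kera (r = 0.43), and Kera followed Fmod on chromosome 1 (0.95) more than Dcn (0.71). Fmod itself lies 107 kb from Prelp, with which its r was 0.62.

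**Figure D2:**
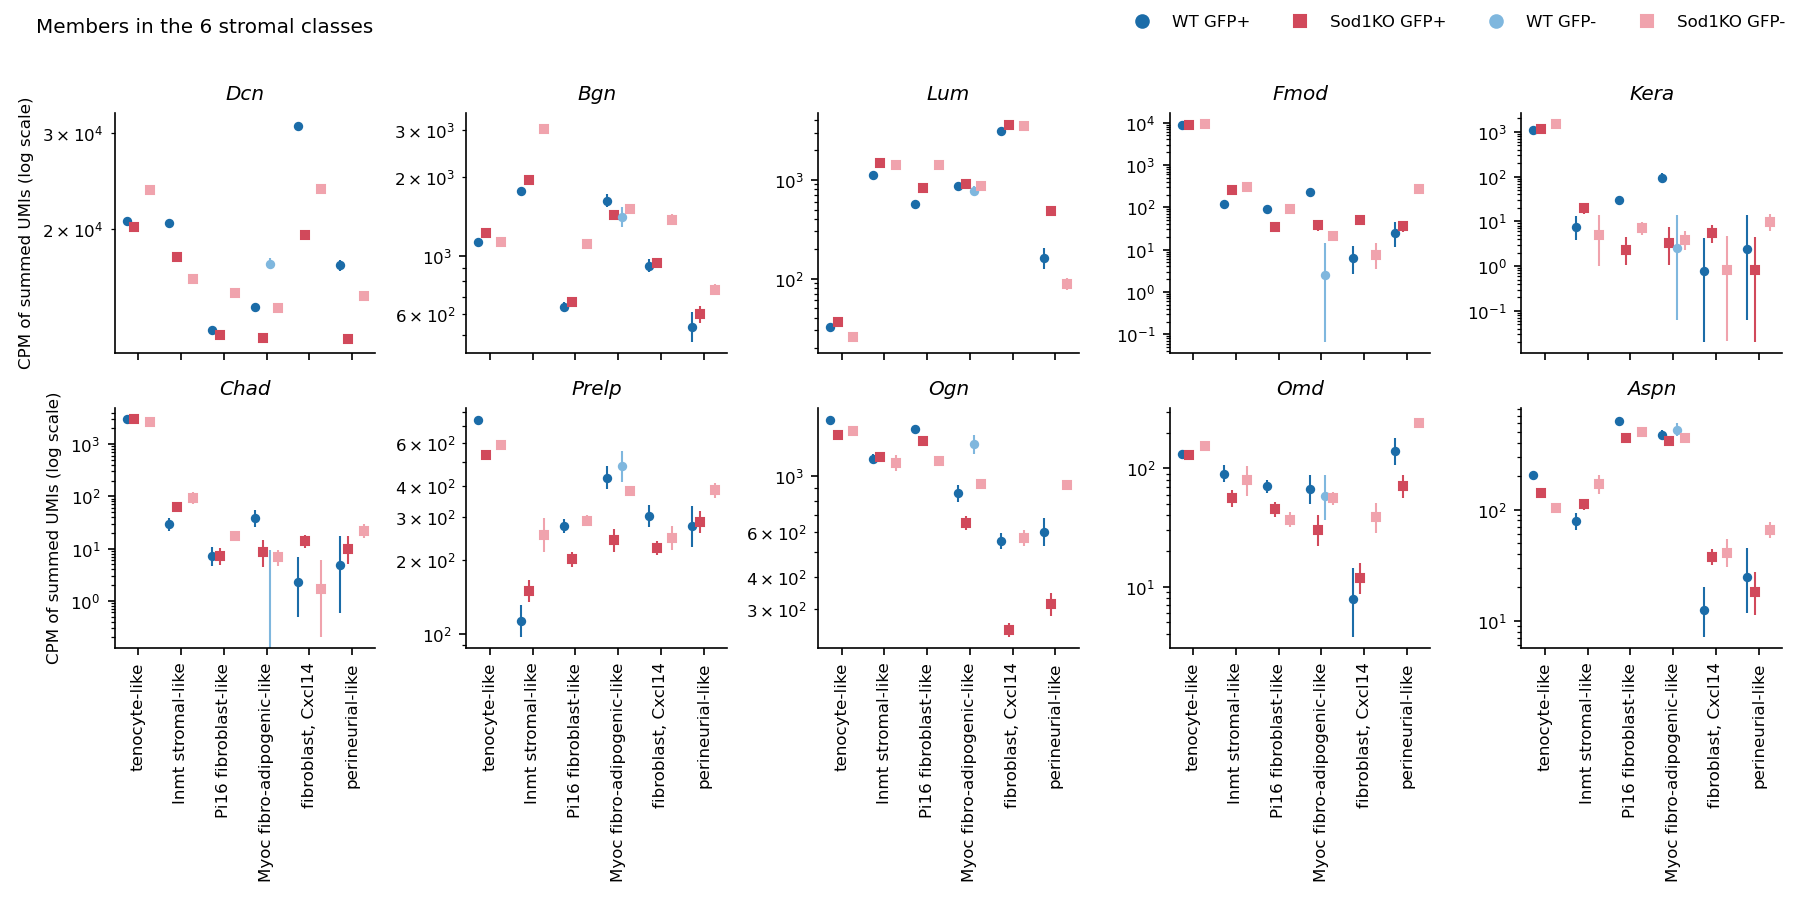
CPM of summed UMIs on a log axis for each gene in the 6 stromal classes, with exact Poisson 95% intervals, by library (points and squares, coloured as in the key; a level of 0 cannot be drawn). Fmod, Kera and Chad stand more than 10-fold higher in tenocyte-like cells than in any other class, Lum is highest in fibroblasts led by Cxcl14, and Dcn differs least.

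Bgn, Ogn, Prelp and Omd were spread over the stroma. Biglycan, which resembles decorin and also acts as a signal to innate immune receptors when free, was highest in Inmt stromal-like cells (1769, 1946 and 3034 CPM) and lowest in perineurial-like cells (538, 599 and 744 CPM). Myoc fibro-adipogenic-like cells came second at 1619, 1431 and 1514 CPM. Their WT GFP+ interval (1531 to 1712 CPM) overlapped that of the Inmt class (1705 to 1835 CPM), and in the other libraries the intervals did not meet. Tenocyte-like cells held 1134, 1223 and 1132 CPM. Osteoglycin, also called mimecan, was highest in tenocyte-like cells of these libraries (1667, 1454 and 1499.6 CPM) but by less than 2-fold over the mean of the other classes. Prelp, which links collagen to the heparan sulfate chains of basement membranes, was likewise highest there (741, 533 and 589 CPM), at 1.90 to 2.65-fold the mean of the others. Omd, a keratan sulfate proteoglycan of bone, was the least abundant of these 4, with 133, 129 and 156 CPM in tenocyte-like cells and 139.9, 70.4 and 242 CPM in perineurial-like cells. The perineurial level exceeded the tenocyte one beyond its interval in Sod1KO GFP-, was below it in Sod1KO GFP+, and overlapped it in WT GFP+.

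Aspn followed another order, with its highest level outside the fibroblasts. Asporin binds collagen and TGF-beta and carries no long sugar chain. Pericyte-like cells held 1068 and 1476 CPM in the GFP+ and GFP- libraries labelled WT, and 1105 and 1111 CPM in those labelled Sod1KO. Smooth muscle-like cells held 599, 648, 513 and 644 CPM in the same order. Pericyte-like cells ranked first of the named classes in all 4 libraries. That class is 1 cluster of 346 cells. Clusters 5, 14 and 19 (910, 474 and 255 cells) passed pericyte and endothelial markers together and were left unnamed. They held Aspn at 614, 471 and 343 CPM over all libraries. Within the stroma Aspn was high in Pi16 fibroblast-like cells (632, 446 and 495 CPM) and in Myoc fibro-adipogenic-like cells (414 to 526 CPM over 4 libraries). Both were at least 2-fold above the mean of the other stromal classes in all 3 libraries, Pi16 cells by 3.01 to 4.00-fold and Myoc cells by 2.47 to 2.74-fold, where 3.10% and 1.43% of genes were. Fibroblasts led by Cxcl14 held 12.5, 37.6 and 40.9 CPM and perineurial-like cells 24.6, 18.01 and 66.2 CPM. After thinning, 56.1% to 64.7% of pericyte-like cells had an Aspn UMI over the 4 libraries, against 1.37% to 3.88% of endothelial-like cells, and unthinned 63.8% to 94.1% against 16.1% to 24.1%. The median depths were 5291 to 11181 and 10996 to 12368 UMIs. The mesenchymal markers summed to 808 to 2147 CPM in pericyte-like cells and 33624 to 39378 CPM in Pi16 fibroblast-like cells. Dcn in pericyte-like cells was at 14.3 to 90.02 CPM, so that Aspn exceeded Dcn there, while Dcn exceeded Aspn in every stromal class (3' tag counts, not scaled to length).

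Aspn and Ogn are neighbours with Omd on chromosome 13, and are shown together because Aspn followed other cell classes than its neighbours. Aspn spans chr13:49544443-49567565, Omd chr13:49582462-49592612 and Ogn chr13:49608015-49624501, with gaps of 14.9 and 15.4 kb, and all 3 lie inside the annotated span of Cenpp (chr13:49464025-49652950). Cenpp lies on the minus strand and the other 3 on the plus strand, and Cell Ranger, run with its defaults per the study's methods, counts sense reads only. Cenpp itself was at 13.7 to 19.7 CPM over all cells of a library. Over the 35 clusters the r of Aspn was 0.51 with Omd and 0.42 with Ogn, and that of Omd with Ogn 0.84. Capitals again mark CANNTG.
Aspn, chr13:49544193-49544492, plus strand: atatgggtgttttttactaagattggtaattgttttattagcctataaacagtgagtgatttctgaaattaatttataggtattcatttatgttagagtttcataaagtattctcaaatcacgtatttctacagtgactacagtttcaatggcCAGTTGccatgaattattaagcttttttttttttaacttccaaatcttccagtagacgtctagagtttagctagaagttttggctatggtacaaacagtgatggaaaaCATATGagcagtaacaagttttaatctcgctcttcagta
Ogn, chr13:49607765-49608064, plus strand: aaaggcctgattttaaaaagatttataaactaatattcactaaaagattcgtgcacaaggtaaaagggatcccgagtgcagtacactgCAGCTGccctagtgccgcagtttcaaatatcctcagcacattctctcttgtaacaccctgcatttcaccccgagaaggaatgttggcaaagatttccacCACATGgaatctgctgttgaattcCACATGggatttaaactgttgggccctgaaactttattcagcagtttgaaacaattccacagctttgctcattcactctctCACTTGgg
The Aspn window holds 2 matches and the Ogn window 4, and 39.6% and 6.49% of all windows hold at least that many. TATAAA, searched on both strands, occurs 2 times in each, which 2.36% of all windows reach. In the Ogn window these matches overlap, in the stretch tttataaa read on both strands, so they are not separate boxes. The CArG box, the letters bound by serum response factor in smooth muscle genes, was searched on both strands and found in 0 of the 8 member windows and in 1.63% of all windows.

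Ogn and Bgn also reached cells of the nerve. Ogn was at 616 and 618 CPM in myelinating Schwann-like cells of WT GFP+ and Sod1KO GFP+, against 9.92 and 8.85 CPM in nonmyelinating Schwann-like cells of the same libraries. After thinning, 43.5% (exact 95% interval 40.5% to 46.5%) and 38.1% (exact 95% interval 34.4% to 41.98%) of myelinating Schwann-like cells had an Ogn UMI, against 0.264% and 1.02% of nonmyelinating ones and 0.329% and 2.31% of endothelial-like cells. The median depth of myelinating Schwann-like cells (6238 and 6118 UMIs) was below that of nonmyelinating ones (12098 and 9524). Dcn, the most abundant member, stood at only 247 and 209.6 CPM there, so that myelinating Schwann-like cells had 249.6 and 295 Ogn UMIs per 100 Dcn UMIs, where the whole libraries had 9.18 and 7.34. Unthinned, the Ogn shares were 83.9% and 77.1% in myelinating, and 5.00% and 8.25% in nonmyelinating Schwann-like cells. Smooth muscle-like cells also held Ogn, at 343 to 547 CPM over the 4 libraries, and pericyte-like cells little, at 5.35 to 39.5 CPM.

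Bgn showed the reverse of Ogn between the Schwann classes, with 344 and 209.5 CPM in nonmyelinating and 26.8 and 30.8 CPM in myelinating Schwann-like cells of WT GFP+ and Sod1KO GFP+. The nonmyelinating shares after thinning were 24.5% and 15.4%, against 0.769% and 1.43% of macrophage-like cells, and unthinned 85.3% and 57.9% against 8.33% and 9.95%. Macrophage-like cells had median depths of 17568 and 13729 UMIs. The nonmyelinating class held different clusters in the 2 libraries, mostly cluster 12 in WT GFP+ (Bgn at 381 CPM over all libraries) and cluster 7 in Sod1KO GFP+ (139 CPM). Smooth muscle-like cells held 206 to 459.5 CPM of Bgn over the 4 libraries. Among the endothelial-like clusters, Bgn was 542 CPM (95% interval 510.2 to 574) in a cluster of 138 cells led by Sele, Ackr1 and Selp, genes of venules, and 17.7 CPM in the largest. Prelp was found in lymphatic endothelial-like cells of Sod1KO GFP- at 254 CPM (95% interval 232 to 278), against 9.28 CPM in the other endothelial-like cells of that library. Their share with a Prelp UMI after thinning was 18.1% (exact 95% interval 11.3% to 26.8%), against 0.623% (exact 95% interval 0.299% to 1.14%) of the endothelial-like cells. Before thinning these were 70.1% and 9.03%, from cells with a median of 12526 and 12368 UMIs. The 3 other libraries held too few lymphatic cells for a value.

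**Figure D3:**
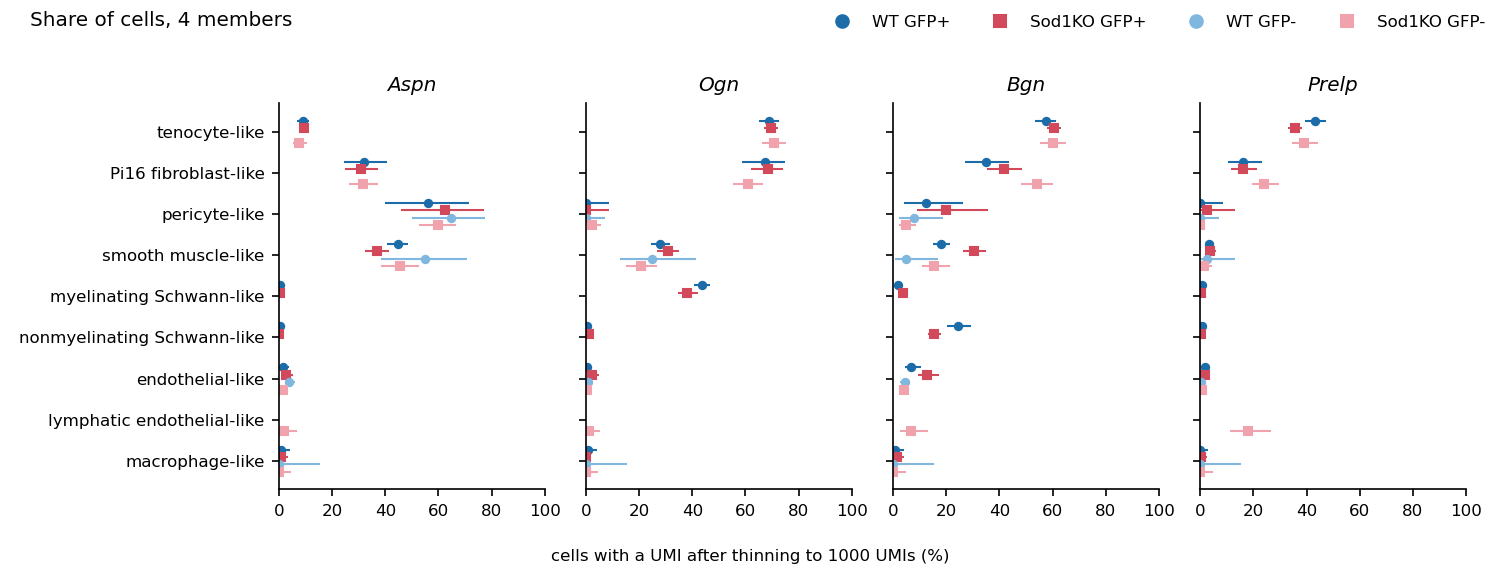
Share of cells with at least 1 UMI after thinning each cell to 1000 UMIs, in percent, with exact 95% intervals, for 4 of the genes in 9 classes and the 4 libraries. Aspn reaches 56.1% to 64.7% of pericyte-like cells, Ogn reaches 38.1% to 43.5% of myelinating Schwann-like cells, Bgn 15.4% to 24.5% of nonmyelinating ones, and Prelp 18.1% of lymphatic endothelial-like cells.

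Tenocyte-like cells were not uniform in these genes. Of their 3 clusters, cluster 1 (1804 cells) was led by Wif1 and Angptl7, cluster 17 (402 cells) by Col22a1 and Ptx4, and cluster 31 held 100 cells of lower depth. Col22a1 encodes a collagen of the junction of muscle and tendon. Fmod was at 10739, 10271 and 10148 CPM in cluster 1 and 2962, 3533 and 4637 CPM in cluster 17 of WT GFP+, Sod1KO GFP+ and Sod1KO GFP-. Chad was at 3719, 3615 and 3053 CPM in cluster 1 and 860.5, 1040.5 and 484 CPM in cluster 17. Kera was at 1106, 1251 and 1576 CPM in cluster 1 and 1112, 796 and 1061 CPM in cluster 17. So Fmod and Chad were lower in cluster 17 in each library, and Kera differed little in WT GFP+.

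On the log2 scale, cluster 17 over cluster 1, Chad was at -2.11, -1.80 and -2.66 in WT GFP+, Sod1KO GFP+ and Sod1KO GFP-, Fmod at -1.86, -1.54 and -1.13, and Dcn at -1.75, -1.94 and -1.44. Aspn ran the other way, from 79.96, 38.1 and 51.5 CPM in cluster 1 to 644, 477 and 477 CPM in cluster 17, log2 ratios of 3.01, 3.65 and 3.21. Lum, low in both, stood at 20.01, 17.5 and 13.8 CPM in cluster 1 and 74.01, 87.5 and 58.7 CPM in cluster 17. Ogn was higher in cluster 17, at 0.60, 0.40 and 0.38, and so was Bgn, at 0.78, 0.74 and 0.062, where the last interval is -0.02 to 0.14. Omd and Prelp were lower, at -1.04, -0.68 and -1.14 and -1.18, -0.40 and -0.33. Of the 10 members, 7, 5 and 6 were at least 2-fold apart in WT GFP+, Sod1KO GFP+ and Sod1KO GFP-, where 28.7%, 28.3% and 29.5% of all genes were. Dcn, Lum, Fmod, Aspn and Chad were among them in each library. The 2 clusters were drawn from these cells, so the ratios describe them and test nothing. Cluster 17 made up 105 of 607, 250 of 1287 and 42 of 395 tenocyte-like cells in the 3 libraries.

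**Figure D4:**
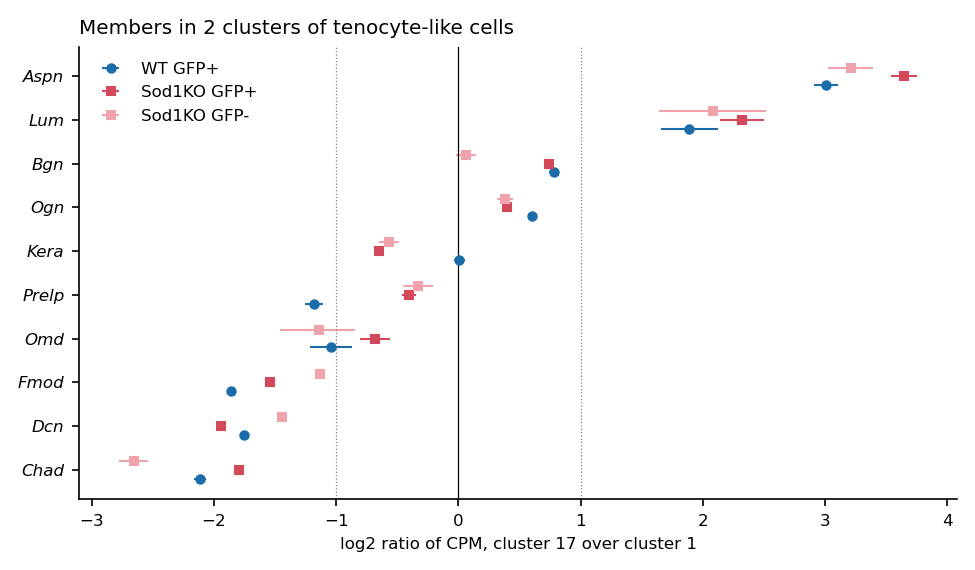
log2 ratio of CPM in cluster 17 over cluster 1 of tenocyte-like cells for each gene, by library, with 95% counting intervals and dotted lines at 2-fold. Aspn and Lum lie above 2-fold in all 3 libraries and Chad, Dcn and Fmod below it.

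Between genotypes, the members differed by less than 2-fold in tenocyte-like cells. In the GFP+ sort 0 of the 10 differed by 2-fold between the library labelled Sod1KO and WT, where 4.71% of the 15365 genes compared did. Their log2 ratios, Sod1KO over WT, ran from -0.52 (Aspn, 204 CPM in WT and 142 in Sod1KO) to 0.18 (Lum), with a median of -0.04 beside 0.02 over all genes. Prelp was at -0.47 (95% interval -0.51 to -0.44) and Ogn at -0.20 (95% interval -0.22 to -0.18), both lower in Sod1KO, while Fmod (-0.04), Chad (-0.03) and Kera (0.05) were close to 0. A difference of 2-fold between single libraries has no replicate behind it, and none of these values says what further mice would show.

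Counted over 13 classes of the GFP+ sort, 30 of the 113 pairs of a member and a class with enough UMIs were at least 2-fold apart between genotypes, 20 higher and 10 lower in Sod1KO, where over all genes 4.34% of such pairs were higher and 2.75% lower. In 22 of the 30 both levels were under 100 CPM. With 5% of the UMIs of each class taken as free RNA of its library and subtracted, 13 of the 30 still had enough UMIs for a ratio, and all 13 of them stayed past 2-fold in the same direction. Among abundant members, Lum in perineurial-like cells was at 162 CPM (95% interval 125 to 206) in WT GFP+ and 479.7 CPM (95% interval 442 to 520.2) in Sod1KO GFP+, a log2 ratio of 1.57 (95% interval 1.20 to 1.96), in a class where 10.8% of genes passed 2-fold. In that class the perineurial markers summed to 5477 and 3486 CPM, the endoneurial fibroblast markers to 4002 and 2687 CPM and the mesenchymal markers to 9299.6 and 8939 CPM, and their part in the result was not tested. Ogn in fibroblasts led by Cxcl14 was at 556 CPM (95% interval 516 to 599) and 247 CPM (95% interval 232 to 264), a log2 ratio of -1.17 (95% interval -1.31 to -1.03), where 9.98% of genes passed. Dcn in the same class fell short of 2-fold, at 30911 and 19470.4 CPM and -0.67 (95% interval -0.68 to -0.65).

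Fmod, Kera and Chad, the tenocyte-like trio, differed by 2-fold or more at low levels in other stromal classes, lower in Sod1KO in some and higher in others. In Myoc fibro-adipogenic-like cells Fmod was at 227 CPM in WT GFP+ and 37.3 in Sod1KO GFP+ (log2 ratio -2.60, 95% interval -3.06 to -2.17), Kera at 95.2 and 3.27 CPM (-4.86, 95% interval -6.53 to -3.57), and Chad at 39.1 and 8.51 CPM (-2.20, 95% interval -3.26 to -1.22), where 5.89% of genes passed. With the members among the clustering genes Fmod there was at -1.52, and with doublets kept Kera was at -2.07. In Pi16 fibroblast-like cells Fmod was at 90.3 and 33.7 CPM (-1.42, 95% interval -1.73 to -1.12) and Kera at 30.3 and 2.32 CPM (-3.71, 95% interval -4.88 to -2.72), while Chad was within 2-fold at 7.18 and 7.21 CPM. In that class 5.22% of genes passed, and Fmod was at 0.84 with the members among the clustering genes. In fibroblasts led by Cxcl14 the same genes were higher in Sod1KO GFP+, Fmod at 6.24 and 51.3 CPM (3.04, 95% interval 2.03 to 4.27) and Kera at 0.78 and 5.38 CPM (2.78, 95% interval 0.14 to 8.16, the first from 1 UMI). Chad, with 3 and 51 UMIs, was also at least 2-fold higher in Sod1KO GFP+. With doublets kept the Fmod ratio was 0.22. The 7 tenocyte markers ran the same way: they summed to 819 and 446 CPM in Myoc fibro-adipogenic-like cells, to 369 and 203 CPM in Pi16 fibroblast-like cells and to 66.3 and 201 CPM in fibroblasts led by Cxcl14. These sums are below 10% of the lowest sum in tenocyte-like cells (12012 CPM). The part of tenocyte RNA in these differences was not tested. In Inmt stromal-like cells Fmod was at 118 and 255 CPM (1.12, 95% interval 0.88 to 1.36), where 6.01% of genes passed, while the tenocyte markers summed to 575 and 416 CPM. Kera (12 and 50 UMIs) and Chad (47 and 155 UMIs) were also at least 2-fold higher in Sod1KO GFP+ there.

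**Figure D5:**
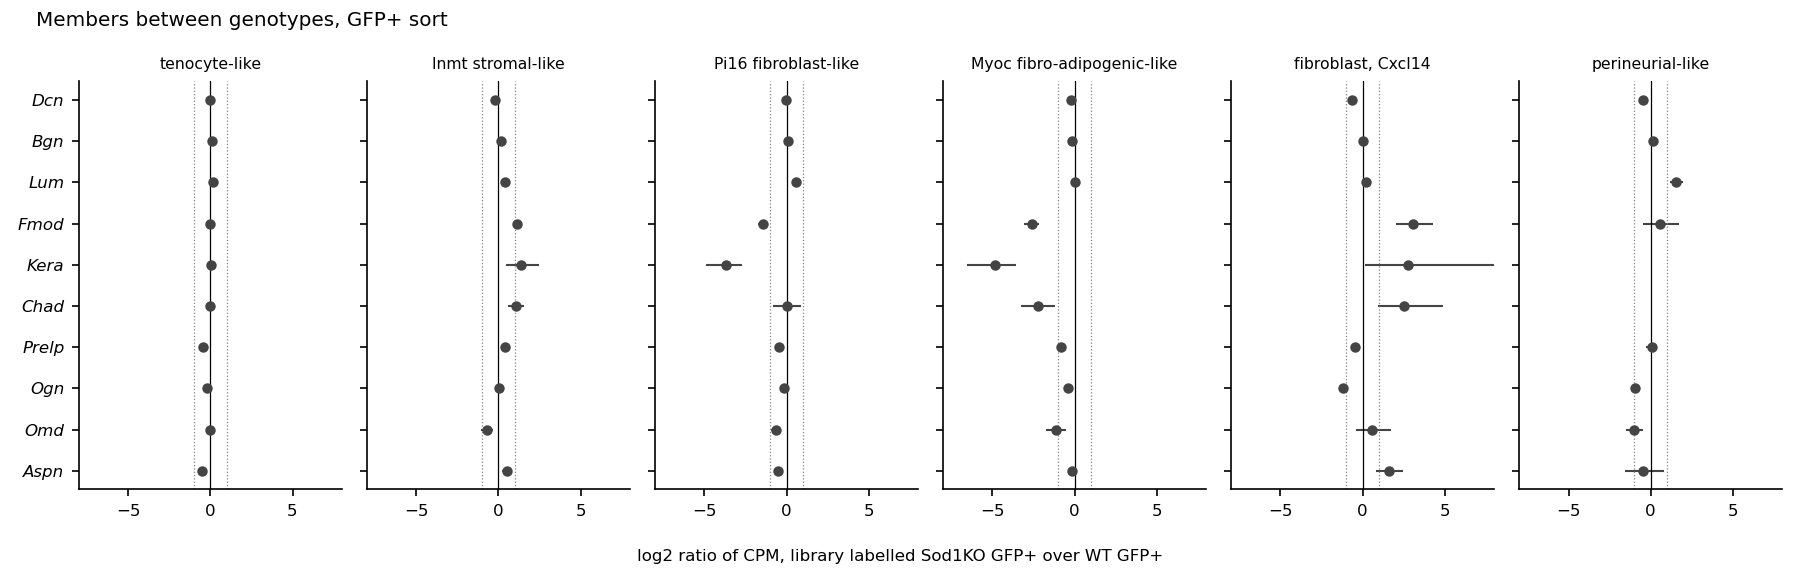
log2 ratio of CPM, library labelled Sod1KO GFP+ over WT GFP+, for each gene in the 6 stromal classes, with 95% counting intervals (cut at 8) and dotted lines at 2-fold, genes with fewer than 20 UMIs left out. All 10 tenocyte-like points lie between the dotted lines, the points farthest from 0 in the Inmt, Pi16, Myoc and Cxcl14 classes are those of Kera or Fmod, and that in perineurial-like cells is Lum.

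Outside the stroma, Dcn in smooth muscle-like cells of the GFP+ sort was at 38.6 CPM (95% interval 35.3 to 42.02) in WT and 107 CPM (95% interval 100.2 to 114) in Sod1KO, and in the GFP- sort at 6.24 CPM (95% interval 2.29 to 13.6) and 78.7 CPM (95% interval 70.3 to 87.9). These are log2 ratios of 1.47 (95% interval 1.32 to 1.63) and 3.66 (95% interval 2.52 to 5.11), where 5.30% and 8.89% of genes passed 2-fold. After subtraction of 5% free RNA too few Dcn UMIs were left in these cells for a ratio. Aspn, abundant in the same cells, was at -0.22 (95% interval -0.28 to -0.17) and -0.01 (95% interval -0.14 to 0.12), and in pericyte-like cells at 0.05 (95% interval -0.16 to 0.26) and -0.41 (95% interval -0.53 to -0.29). In the GFP- sort, 10 of 30 pairs of a member and a class were at least 2-fold apart, 9 higher and 1 lower, where over all genes 7.23% of pairs were higher and 3.77% lower. After the subtraction 1 of the 10 (Ogn in pericyte-like cells) still had enough UMIs for a ratio and stayed past 2-fold. Its WT level was taken to 0 and set to 3 UMIs, so the same limit holds as in the GFP+ sort. The GFP- comparison of fibroblasts rests on Myoc fibro-adipogenic-like cells, 24 in WT and 343 in Sod1KO. There Dcn was at -0.27 (95% interval -0.31 to -0.24), Ogn at -0.51 (95% interval -0.64 to -0.38) and Bgn at 0.11 (95% interval -0.02 to 0.23), all within 2-fold. In pericyte-like cells Bgn was at 152 CPM in WT GFP+ and 336 in Sod1KO GFP+ (1.15, 95% interval 0.67 to 1.63), where 12.2% of genes passed, and in the GFP- sort at 60.6 and 72.5 CPM (0.26, 95% interval -0.29 to 0.85). The pericyte-like class held 42 cells in WT and 47 in Sod1KO of the GFP+ sort, and 51 and 206 of the GFP- sort. Ogn in pericyte-like cells of the GFP- sort was at 5.35 and 39.5 CPM (2.88, 95% interval 1.28 to 5.19, the first from 3 UMIs), where 9.16% of genes passed. In satellite-like cells of the GFP+ sort, 38 in WT and 58 in Sod1KO, Bgn was at 311 and 75.2 CPM (-2.05, 95% interval -2.54 to -1.58) and Lum at 100.1 and 4.70 CPM (-4.41, 95% interval -6.73 to -2.79), where 9.40% of genes passed. The mesenchymal markers in these cells summed to 3460.0 and 2235 CPM, and their part in the result was not tested.

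Between sorts, the perineurial-like class had the most members past 2-fold of the stromal classes, 7 of 10. In the libraries labelled Sod1KO, Lum was at 479.7 CPM in GFP+ and 87.6 in GFP-, a log2 ratio, GFP+ over GFP-, of 2.45 (95% interval 2.22 to 2.69). Fmod (36.02 and 264 CPM), Ogn (312 and 919.6), Omd (70.4 and 242) and Aspn (18.01 and 66.2) ran the other way, at -2.87, -1.56, -1.78 and -1.88. With doublets kept the Fmod ratio was -0.28 and that of Lum 2.56. In that class 11.3% of genes passed 2-fold. Perineurial markers summed to 3486 CPM in GFP+ and 8016 in GFP-, smooth muscle markers to 210.4 and 1011, and tenocyte markers to 291 and 535, and their part in the result was not tested. WT GFP- held 6 such cells, so WT gave no ratio. In fibroblasts led by Cxcl14 Ogn was again lower in GFP+, at 247 against 570.1 CPM (-1.20, 95% interval -1.35 to -1.06), where 7.75% of genes passed. In tenocyte-like cells none of the 10 members passed 2-fold between the sorts, where 5.33% of genes did. Bgn in endothelial-like cells was higher in GFP+ within both genotypes, at 152 against 50.2 CPM in WT and 218 against 71.2 CPM in Sod1KO, where 8.67% and 11.4% of genes passed, while the smooth muscle markers in that class summed to 942 against 433 and 1409.9 against 442 CPM, and their part in the result was not tested. Over all classes 15 pairs were higher and 1 lower in GFP+ of 32 in WT, and 30 higher and 12 lower of 102 in Sod1KO, where over all genes 7.31% were higher and 5.17% lower in WT, and 6.30% and 4.77% in Sod1KO. After the free RNA subtraction 6 of the 16 pairs in WT and 17 of the 42 in Sod1KO still had enough UMIs for a ratio, and all of these stayed past 2-fold. As between genotypes, such pairs kept their UMIs mainly where the member was high, and a level taken to 0 was set to 3 UMIs. The part of free RNA was therefore not tested.

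The genes around these proteins were read from lists of collagens, sugar chain enzymes, proteases and receptors. Genes named from the lists in this paragraph were chosen after their values were seen. Of the 17 fibrillar collagens and fibril partners, 7 were at least 2-fold above the mean of the other stromal classes in tenocyte-like cells in all 3 libraries, among them Col1a1, Col1a2 and Col11a1, the last also one of the tenocyte markers, and 8 were 2-fold below it, among them Col3a1, Col5a1 and Col14a1. In Pi16 fibroblast-like cells 6 were higher and 4 lower, where 3.10% and 7.58% of all genes were. In fibroblasts led by Cxcl14, where Lum was highest, 0 were higher and 9 lower, where 1.87% and 4.97% of all genes were. Of the 6 measured enzymes of keratan sulfate synthesis, tenocyte-like cells had 1 higher (Chst5, a sulfotransferase) and 3 lower (B3gnt2, B4galt1 and Chst1). Of 21 enzymes that build the linker and the chondroitin or dermatan sulfate chains, 1 was higher (Chsy3) and 1 lower (Chst7) in tenocyte-like cells. Both proteases that were lower there, Adamts5 and Mmp3, were also lower in fibroblasts led by Cxcl14. Of the 16 receptors and bound growth factors, Met, Tlr2, Itga2 and Ccn4 were higher and Vegfa and Tlr4 lower in tenocyte-like cells. Of the 8 further family genes, 5 had enough UMIs, Podn was lower in tenocyte-like and higher in Inmt stromal-like cells, and Tsku was higher in Pi16 fibroblast-like cells. Across all genes 3.98% were higher and 12.6% lower in tenocyte-like cells.

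Between genotypes in the GFP+ sort, the lists moved as little in tenocyte-like cells as the members. None of the 17 collagens and fibril partners, 21 chondroitin or dermatan sulfate enzymes and 6 keratan sulfate enzymes with a ratio passed 2-fold, with medians of -0.12, 0.03 and -0.15 on the log2 scale. Of the 16 receptors and growth factors, 1 was at least 2-fold lower. Both sorts had a genotype comparison in 5 classes, and 240 pairs of a listed gene and a class had a ratio in both. Of these, 4 passed 2-fold in the same direction in both sorts, all higher in Sod1KO, where 0.772% of such pairs over all genes were. They were Chst2, a keratan sulfate sulfotransferase, in Myoc fibro-adipogenic-like cells (log2 ratios of 1.09 in GFP+ and 1.15 in GFP-), Chsy3 (1.27 and 1.31) and Ust (1.77 and 1.16), both chondroitin or dermatan sulfate enzymes, in smooth muscle-like cells, and Ccn4, whose protein binds decorin and biglycan, in endothelial-like cells (1.51 and 3.21).

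The genes most like each member over the 35 clusters, by Pearson r of log2(CPM + 1), differed between members. For Fmod they were Cilp2 (0.97), Tnmd (0.96), Wif1 (0.95), for Chad Cilp2 (0.97), Scx (0.96), Wif1 (0.94), and for Kera Wif1 (0.93), Cilp2 (0.93), Thbs4 (0.93). Wif1, which encodes an inhibitor of Wnt ligands, and Cilp2 stood among the first 3 for all of these. Cilp2, Tnmd, Scx and Thbs4 are tenocyte markers used to name the clusters, so their place here is no separate support. For Lum they were Smoc2 (0.93), Pdgfra (0.91), Cpxm1 (0.90), and for Dcn Igfbp6 (0.96), Fbln1 (0.94), Serpinf1 (0.94), where Pdgfra marks fibroblasts. For Aspn they were Pdgfrb (0.91), Pth1r (0.89), Bmp5 (0.86), where Pdgfrb marks pericytes and smooth muscle. Omd was most like Clec11a (0.93), B3gnt9 (0.92), Fbln1 (0.92), Bgn most like Fkbp7 (0.90), Mxra8 (0.89), Fstl1 (0.88), Prelp most like Fndc1 (0.87), Nupr1 (0.85), Il11ra1 (0.83), and Ogn most like Bhlhe41 (0.86), Vit (0.86), Col1a1 (0.83). Among the members themselves Aspn had low values with every other member, from 0.29 with Chad to 0.51 with Omd. Pdgfra, Pdgfrb, Smoc2, Bmp5, Vit, Col1a1 and Wif1 were also in the marker lists used to name clusters, so their place here is no separate support either. These r values are over clusters that share libraries and depth and carry no test.

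A small unnamed cluster held several members at high levels. Its 41 cells, 35 of them from Sod1KO GFP+ and 6 from WT GFP+, were led by the bone genes Bglap2, Bglap and Ibsp and were left unnamed because bone genes led it, although 4 of the 7 tenocyte markers passed there. Aspn stood there at 1966 CPM (95% interval 1882 to 2052) and Omd at 284 CPM (95% interval 253 to 318), each above every named cluster. Lum was at 2378 CPM and Chad at 1486 CPM in the same cluster, so that both were high in its summed UMIs, as in none of the 6 stromal classes. Whether single cells held both was not tested. Fmod was at 2438 CPM, Kera at 52.4 CPM and Dcn at 9365 CPM. Another unnamed cluster of 629 cells, with myelin and perineurial markers together, held Dcn at 10224, Lum at 263 and Omd at 53.5 CPM, and the cluster led by Sfrp2 in WT GFP- held Fmod at 768 and Lum at 404 CPM together with endothelial markers at 3496 and smooth muscle markers at 5233 CPM.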

How the data were processed

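Per the labels, the authors aligned 10x Genomics 3' reads to mm10 with Cell Ranger 7.1.0 and used Seurat 4.30 downstream, whereas the study's methods name another Cell Ranger release. The deposited matrices hold raw UMI counts per gene and barcode, with no normalization. Cell Ranger count was run with its defaults, which count reads in the sense direction of a gene. Cells with more than 200 genes and under 10% mitochondrial UMIs were kept. Doublets were scored per library from simulated pairs and removed at 0.8% per 1000 barcodes. Cells were clustered on 30 principal components of 2000 variable genes, the members left out, with 20 neighbours and Leiden resolution 1 (leidenalg 0.10.2, scikit-learn 1.9.0, scipy 1.17.1, Python 3.11.15). A cluster took a name from a list when at least 3 markers and 50% of it passed 20 CPM and 2-fold over the other clusters. It stayed unnamed when lists of more than 1 lineage passed, or when it was shallow with no marker among its leading genes. Leading bone genes also left a cluster unnamed, a rule chosen after the clusters were seen. CPM was computed from summed UMIs per class and library with exact Poisson 95% intervals, shares with Clopper-Pearson intervals, and ratios with conditional binomial intervals, for classes of at least 20 cells and genes of at least 20 UMIs. A count of 0 was set to 3 UMIs for a ratio. All intervals cover counting error only. Mice were pooled, so no test was made between groups. The calls were run on simulated Poisson counts with known changes. These hold no variation between cells or mice and no free RNA, so they do not test the differences between single libraries.

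The members, marker lists and gene lists were chosen with earlier results of these data known. All 10 members are described, and further genes are named from the lists where they passed 2-fold in both sorts, by likeness (first 3 by r with at least 1000 UMIs), or as stated. Alternatives covered the cell filter, doublets, clustering genes, free RNA, pooling, clusters held by 1 library, scaling, the UMI minimum and the fold. Gene positions and promoter windows come from RefSeq on GRCm38.p6, the assembly of mm10, and were matched by symbol.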

Additional observations from a re-analysis of the deposited data

Results flagged for a closer look

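For 6 pairs of a member and a class, the log2 ratio of Sod1KO over WT had opposite signs in the sorts, with counting intervals on either side of 0. With 1 library per group the difference was not tested. Fmod in Myoc fibro-adipogenic-like cells was at -2.60 in GFP+ and 3.07 in GFP-, the latter from 1 UMI in WT. Ogn in endothelial-like cells was at 1.17 in GFP+ and -1.37 in GFP-, and Dcn in the same cells at 0.76 in GFP+ and -0.60 in GFP-. Dcn in macrophage-like cells was at -0.62 in GFP+ and 2.21 in GFP-, the latter from 3 UMIs in WT. Aspn in endothelial-like cells was at 0.31 in GFP+ and -0.31 in GFP-. Bgn in smooth muscle-like cells, where it is abundant, was at 0.69 in GFP+ and -0.23 in GFP-.

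In cells outside the named classes, the unnamed cluster led by bone genes held Aspn at 1966 CPM and Omd at 284 CPM, above every named cluster. It holds 41 cells and none from the GFP- sort.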

How the results depend on the processing

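Each group is 1 library, so no replicate could be left out and the intervals cover counting error only. No paired analysis was possible because the labels give no replicate numbers and each genotype and sort is 1 library. The sorts of a genotype come from 1 pool, and ratios between sorts were taken within it. The pairs of a member and a class at least 2-fold apart between genotypes numbered 30 in GFP+, and 15 with 5% free RNA subtracted and 50 at 1.5-fold. In GFP- they numbered 10, and 18 with doublets kept, 1 with free RNA subtracted and 5 with at least 50 UMIs. Between sorts in WT they numbered 16, and 8 under more than 500 genes and 5% mitochondrial UMIs, 6 with free RNA subtracted and 10 with at least 50 UMIs. In Sod1KO they numbered 42, and 22 with free RNA subtracted. The subtraction leaves fewer pairs with enough UMIs. The stromal count (27 of 60 pairs) ranged from 26 to 32 over the alternatives that gave a value. Most of these pairs are the low Fmod, Kera and Chad of the classes other than tenocyte-like, which restate the tenocyte-like level. Over all genes, 1.43% to 5.05% were higher and 3.78% to 12.6% lower, depending on the class. With the members among the clustering genes it gave none, because the cluster led by Cxcl14 was then named Myoc fibro-adipogenic-like. Of 661 values of single pairs under the alternatives, 586 kept their direction within the counting error or the call, 61 moved and 14 reversed, and the cause was not tested. With doublets kept, the reversed log2 ratios were -0.90 for Lum between genotypes in nonmyelinating Schwann-like cells of GFP+, 0.031 for Dcn between sorts in endothelial-like cells of WT, -2.28 for Aspn between sorts in macrophage-like cells of WT, 0.043 for Chad between sorts in Pi16 fibroblast-like cells of Sod1KO, 0.86 for Chad between sorts in perineurial-like cells of Sod1KO, -0.996 for Chad between sorts in smooth muscle-like cells of Sod1KO, -1.37 for Dcn between sorts in pericyte-like cells of Sod1KO, -0.95 for Fmod between sorts in pericyte-like cells of Sod1KO, -1.79 for Aspn between sorts in macrophage-like cells of Sod1KO. With the members among the clustering genes they were 0.84 for Fmod between genotypes in Pi16 fibroblast-like cells of GFP+, -2.40 for Fmod between genotypes in Myoc fibro-adipogenic-like cells of GFP-, -1.28 for Fmod between sorts in Myoc fibro-adipogenic-like cells of WT, 2.20 for Fmod between sorts in Pi16 fibroblast-like cells of Sod1KO. With the mean of the CPM of each cell, Dcn between genotypes in macrophage-like cells of GFP- was at -0.56.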
